A study of Homo sapiens with 6 samples.

Results

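RAB proteins form the largest branch of the RAS superfamily of small GTPases, and the genes that encode them were followed here through RNA sequencing of MDA-MB-231, an established human breast cancer line. The members were the genes whose symbol is RAB, a number and at most one letter from A to F. By that rule 56 of the 15024 genes with values were RAB genes, and all 56 had enough reads to be tested. A further 7 RAB genes of the classification used below were not analysed here.

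Both populations came from the same cells: MDA-MB-231 with a genotype labelled Mll3-null (MLL3 is the histone H3 lysine methyltransferase encoded by KMT2C), kept for 14 days in 10 µM forskolin, which activates adenylyl cyclase and thereby raises cAMP and protein kinase A activity. The cells were then sorted by the surface level of CD104, the integrin beta-4 chain. CD44+CD104high cells (n = 3 biological replicates), which the study design calls hybrid EMT (epithelial-mesenchymal transition) cells, are CD104high below. CD44+CD104-/low cells (n = 3), which it calls mesenchymal, are CD104low. Deletion and forskolin were shared by every library, so neither can be assessed here, and the labels do not say whether the null cells were 1 clone. Nothing in the labels ties a replicate to a separate culture, so p-values measure only the spread between these samples.

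A RAB protein works as a switch. It is loaded with GTP by a guanine nucleotide exchange factor (GEF), binds effectors on one kind of membrane, has its GTP hydrolysed with the help of a GTPase-activating protein (GAP, usually with a TBC domain), and is drawn off the membrane by a GDI protein. A lipid added by geranylgeranyl transferase lets it sit in the membrane. Because each RAB marks its own membrane, such as the Golgi, the early endosome, the recycling endosome, the lysosome or the secretory granule, the set of RABs that a cell makes bears on its traffic routes. In carcinoma cells, RABs are known for moving integrins, growth factor receptors and proteases to and from the surface.

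Levels are the deposited read counts divided by 1 size factor per library, called scaled reads here. Between 49791498 and 60069719 reads per library could be recovered from the listed genes. As a check of the sort, ITGB4 was at 15445, 14508 and 19435 scaled reads in CD104high cells, against 1492, 2273 and 1333 in CD104low cells. All CD104high libraries were far above all CD104low libraries, while CD44, the marker shared by both gates, averaged 25592 ± 3169 scaled reads in CD104high cells and 24650.5 ± 1232 in CD104low cells (SD, n = 3 each). KMT2C was at 3934, 3561 and 3952 scaled reads in CD104high cells, against 2095, 2610.5 and 2814 in CD104low cells. Reads over the whole gene do not show which part was deleted, so this value does not check the label. Of the markers that define a triple-negative line, ESR1 and PGR were not analysed here, and ERBB2 averaged 8165 ± 409 scaled reads in CD104high cells and 6519 ± 430.3 in CD104low cells. Of 8 markers of blood, vessel and liver cells, 2 were in the table. CD14 was at 278, 335 and 375 scaled reads in CD104high cells, against 145, 208 and 175 in CD104low cells, and PECAM1 was at 4.58, 8.83 and 4.06 scaled reads in CD104high cells, against 11.1, 4.04 and 14.6 in CD104low cells. The part of other cells in the results below was not tested. In sorted bulk RNA, fewer cells that express a gene and less RNA of it per cell cannot be told apart.

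The upstream sequences of 46 of the 56 RAB genes were found among RefSeq promoter windows (build GRCh38.p14). Those below belong to the 2 RAB genes with the largest rises and the 2 with the largest falls among called genes with a mean of at least 50 scaled reads and at least 100 upstream bases outside annotated exons. They are cut to bases outside annotated exons and differ in length, so their motif counts need not be those of the full 250 bases. Each is the strand of the gene, 5′ to 3′, from within the 250 bases before the RefSeq start site, and capitals mark matches to GGGCGG (the GC box) or to TGACG (the core of the cAMP response element), on either strand. RAB27B lies on the plus strand at chr18:54717607-54717856, RAB31 on the plus strand at chr18:9708051-9708164, RAB32 on the plus strand at chr6:146543583-146543692 and RAB28 on the minus strand at chr4:13484366-13484590.
RAB27B: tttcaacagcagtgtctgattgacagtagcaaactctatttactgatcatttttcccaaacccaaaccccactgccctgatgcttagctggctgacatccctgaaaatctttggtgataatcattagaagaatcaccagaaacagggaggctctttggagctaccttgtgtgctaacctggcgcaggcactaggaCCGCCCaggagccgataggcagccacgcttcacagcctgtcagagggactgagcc
RAB31: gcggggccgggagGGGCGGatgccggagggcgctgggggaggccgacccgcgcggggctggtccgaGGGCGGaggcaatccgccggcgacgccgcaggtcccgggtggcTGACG
RAB32: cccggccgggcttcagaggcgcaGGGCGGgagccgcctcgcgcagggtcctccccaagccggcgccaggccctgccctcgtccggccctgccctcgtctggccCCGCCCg
RAB28: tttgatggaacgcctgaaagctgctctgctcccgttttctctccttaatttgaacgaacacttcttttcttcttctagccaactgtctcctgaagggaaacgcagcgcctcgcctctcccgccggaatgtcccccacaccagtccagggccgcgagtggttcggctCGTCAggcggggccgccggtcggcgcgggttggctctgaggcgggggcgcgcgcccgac
The RAB31 and RAB32 stretches are 82.5% and 81.8% G and C and hold 2 GC boxes each, though RAB31 was higher and RAB32 lower in CD104high cells. The RAB27B stretch, at 50.4%, holds 1 GC box and no TGACG, and the RAB28 stretch, at 63.1%, holds 1 TGACG on the opposite strand and no GC box. In the full 250 bases RAB28 holds 1 TGACG and 1 GC box, and RAB32 1 TGACG and 2 GC boxes. RAB31 holds 1 TGACG and 3 GC boxes there.

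Of the 56 RAB genes, 12 were higher and 9 were lower in CD104high cells than in CD104low cells, and 35 were not called. The call was an adjusted p under 0.05 in limma's moderated test on log2(value + 1), with Benjamini-Hochberg adjustment over all 14420 genes tested. Calls were common in the whole table: 21.8% of all genes tested were higher and 21.6% were lower, against 21.4% and 16.1% of the RAB genes. In either direction together, 21 RAB genes (37.5%) were called, below the 43.4% of all genes. The authors' deposited table calls 13 RAB genes higher and 10 lower, where it calls 23.1% and 22.6% of all its genes, and these include all 21 calls made by limma, in the same directions. The 3 libraries of one population lay wholly above or below the other's for 29 RAB genes, 17 above and 12 below, where 54.3% of all genes tested did not overlap. The median log2 fold change (CD104high minus CD104low) over the RAB genes was 0.06, against 0.02 over all genes, and the median size of the change was 0.23 against 0.30. Of the called RAB genes, 6 (10.7% of the family) changed by at least 1 on the log2 scale, RAB7B, RAB27B, RAB17, RAB31 and RAB37 upward and RAB39A downward, where 5.84% of all genes were called with such a change. RAB39A passed the filter on low values through its CD104low libraries alone, so it had to differ, and it is counted among these 6 and among the 9 lower genes. Without CD104high replicate 1, CD104low replicate 1 or CD104low replicate 3, the lower genes numbered 4 in each case. After a correction for transcript length and GC content, 18 RAB genes were higher and 7 were lower, where 19.6% and 20.9% of all genes were.

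**Figure D1:**
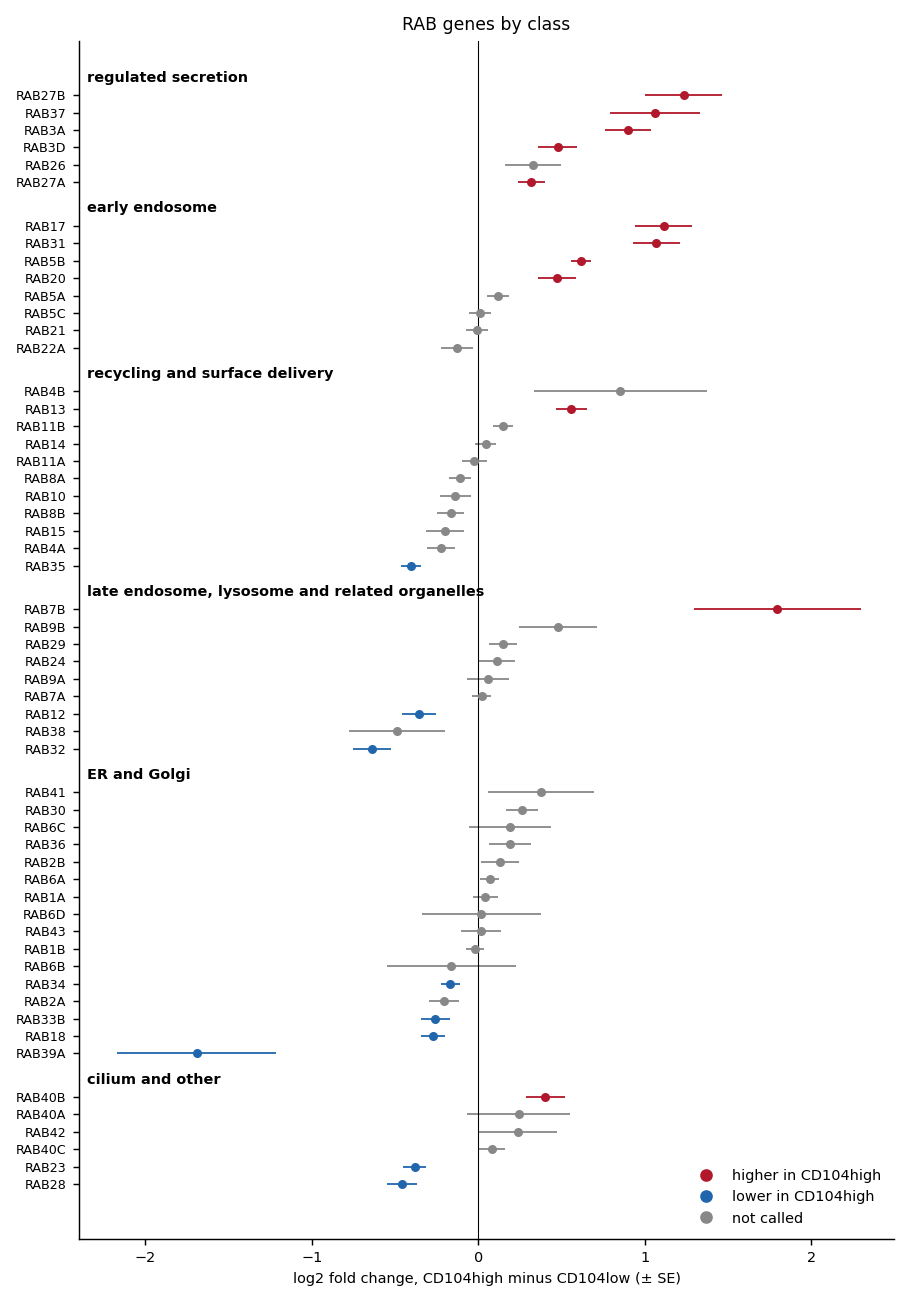
Log2 fold change of each RAB gene (CD104high minus CD104low, x axis, limma on log2(value + 1), bars are SE, n = 3 libraries each), grouped by the membrane it is best known for. Red points are called higher in CD104high cells, blue points lower, grey points not called. Of 6 regulated secretion genes 5 are red, and the 16 ER and Golgi genes hold no red point and 4 blue ones, RAB39A among them. After the length and GC correction (not drawn) the ER and Golgi genes have 3 higher and 2 lower.

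The RABs of regulated secretion gave the highest median of the 6 classes, 0.69 over 6 genes, with 5 higher and 0 lower, against 21.8% and 21.6% of all genes tested. RAB27B, which docks secretory granules and multivesicular endosomes at the plasma membrane, was at 649.9, 746 and 1202 scaled reads in CD104high cells, against 312, 437 and 328 in CD104low cells. The lowest CD104high library was above the highest CD104low library. The log2 fold change was 1.23 ± 0.23 (SE; adjusted p = 0.00323). RAB27A, its paralog, best known from melanosome transport and exosome release, was at 1616, 1459 and 1633 scaled reads in CD104high cells, against 1222, 1317 and 1235 in CD104low cells. The populations did not overlap, and the change was the smaller of the pair, 0.32 ± 0.08 (SE; adjusted p = 0.0135). RAB3A, known from synaptic vesicle release, was at 265, 278 and 253 scaled reads in CD104high cells, against 139, 136 and 150.5 in CD104low cells. Its CD104high libraries lay close together and well above the others, with a change of 0.90 ± 0.14 (SE; adjusted p = 0.00139). RAB3D, a RAB of secretory granules in exocrine cells, was at 457, 454 and 440.0 scaled reads in CD104high cells, against 292, 329 and 352 in CD104low cells. These ranges were also apart, and the change was 0.48 ± 0.12 (SE; adjusted p = 0.0115). RAB37, found on mast cell granules, was rare, at 47.6, 54.7 and 61.8 scaled reads in CD104high cells, against 24.1, 32.4 and 21.3 in CD104low cells. Every CD104high library was above every CD104low library, and the change was 1.06 ± 0.27 (SE; adjusted p = 0.0135). RAB26, linked with granule maturation, was at 408, 456 and 413 scaled reads in CD104high cells, against 367, 401 and 263 in CD104low cells. Its populations did not overlap either, by a narrow gap, and it was not called at 0.33 ± 0.17 (SE; adjusted p = 0.142). Leaving out CD104low replicate 1 ended the calls of RAB3D (adjusted p = 0.0504) and RAB27A (0.0554), and leaving out CD104high replicate 1 ended that of RAB27A (0.0588). Transcripts of other genes hold, on the opposite strand, 9.01%, 24.5% and 6.53% of the 31-base words of the longest RAB3A, RAB3D and RAB27A transcripts, and reads from there could be assigned to either gene if strand was not used in counting.

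The RABs of the early endosome came next, with a median of 0.30, 4 of 8 genes higher and 0 lower, against 21.8% and 21.6% of all genes. RAB31, which acts between the trans-Golgi network and endosomes and in traffic of the EGF receptor, was at 3368, 4006 and 4874 scaled reads in CD104high cells, against 1725, 2210.2 and 1859.7 in CD104low cells. The populations were far apart, with CD104high replicate 3 the highest, and the change was 1.07 ± 0.14 (SE; adjusted p = 0.000747). RAB17, a RAB mostly described in polarised epithelia, where it serves transcytosis, was at 540.0, 567 and 471 scaled reads in CD104high cells, against 190.1, 255 and 292 in CD104low cells. All CD104high libraries were above all CD104low libraries, with a change of 1.11 ± 0.17 (SE; adjusted p = 0.00145). RAB5B, one of the paralogs that drive early endosome fusion, was at 7533, 7697 and 7884 scaled reads in CD104high cells, against 4780.0, 5251 and 5067 in CD104low cells. The ranges were well separated, and the change of 0.62 ± 0.06 (SE; adjusted p = 0.000307) had the smallest adjusted p of any RAB gene. RAB20, known from endosome and phagosome maturation, was at 875, 960.2 and 1104 scaled reads in CD104high cells, against 666, 771 and 672 in CD104low cells. The groups did not overlap, and the change was 0.48 ± 0.11 (SE; adjusted p = 0.0104). The 4 others were not called: RAB5A at 0.12, RAB5C at 0.01, RAB21, which binds integrin alpha tails, at -0.01, and RAB22A, a RAB of endosomal recycling, at -0.13. For RAB5C, 38% of its 31-base words are shared with other genes, so its reads may be divided. Calls of RAB31, RAB17, RAB5B and RAB20 were made under each of the 19 alternatives run.

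**Figure D2:**
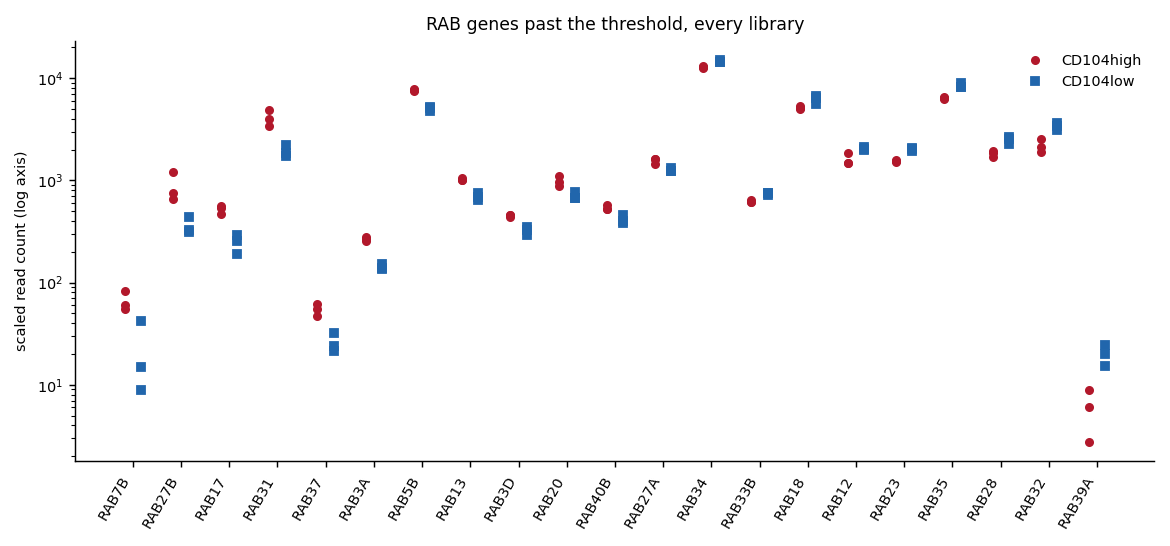
Scaled reads (y axis, log scale) of the 21 called RAB genes in every library, with CD104high libraries as red circles and CD104low libraries as blue squares, ordered by log2 fold change from the largest rise to the largest fall. The 2 populations do not overlap for any of these genes, and the levels run from 2.75 scaled reads for RAB39A to 15092 for RAB34.

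Late endosome and lysosome RABs went in both directions, with a median of 0.06, 1 of 9 higher and 2 lower, where 21.8% and 21.6% of all genes were. RAB7B, which acts in transport from late endosomes to the trans-Golgi network, was at 60.4, 83.0 and 55.8 scaled reads in CD104high cells, against 15.1, 42.5 and 8.98 in CD104low cells. The populations did not overlap, but CD104low replicate 2 was much closer to the CD104high libraries than its 2 companions were. The log2 fold change of 1.80 ± 0.50 (SE; adjusted p = 0.0194) was the largest rise of the family and had the widest error among the called rises. Without CD104high replicate 1, CD104high replicate 2 or CD104low replicate 1 the adjusted p was 0.0531, 0.0624 and 0.0723, in that order. RAB7A, the RAB that controls fusion with lysosomes and the namesake of RAB7B, averaged 13293 ± 418 scaled reads in CD104high cells and 13107 ± 246 in CD104low cells (SD, n = 3 each) and was not called at 0.02. RAB32, which serves melanosomes and other lysosome-related organelles and also mitochondria, was at 1884, 2140.1 and 2549 scaled reads in CD104high cells, against 3648, 3102 and 3408 in CD104low cells. Every CD104high library was below every CD104low library, and the change was -0.64 ± 0.11 (SE; adjusted p = 0.0028). RAB38, the close relative of RAB32 in melanosome biogenesis, was at 157, 177 and 78.1 scaled reads in CD104high cells, against 167, 191 and 189 in CD104low cells. Only CD104high replicate 3 was low, the populations overlapped, and the change of -0.49 was not called. RAB12, which takes receptors from recycling endosomes to lysosomes, was at 1483, 1464 and 1869 scaled reads in CD104high cells, against 2109, 1998 and 2016 in CD104low cells. The groups did not overlap, with CD104high replicate 3 nearest to the CD104low libraries, and the change was -0.36 ± 0.10 (SE; adjusted p = 0.0222). Its adjusted p was 0.087, 0.0742, 0.0824 and 0.0526 without CD104high replicate 1 or 2 or CD104low replicate 1 or 3, and 0.0993 after the length and GC correction. RAB9A, RAB9B, RAB24 and RAB29 were not called, at 0.06, 0.48, 0.11 and 0.15 on the log2 scale. RAB24 shares 48.5% of its 31-base words with MXD3.

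Recycling and surface delivery RABs had a median of -0.11, with 1 of 11 higher and 1 lower, below the 21.8% and 21.6% of all genes. RAB13, which brings junction proteins to the surface of epithelial cells, was at 1006, 1005 and 1044 scaled reads in CD104high cells, against 638, 691 and 750.2 in CD104low cells. The populations were clearly apart, at 0.56 ± 0.09 (SE; adjusted p = 0.00207). Of the 31-base words of its longest transcript, 30.8% also occur in transcripts of other annotated genes, mostly those of a neighbour on the same strand. RAB35, which runs fast recycling at the plasma membrane and shapes actin there, was at 6498, 6425 and 6206 scaled reads in CD104high cells, against 8949.5, 8174 and 8229.5 in CD104low cells. All CD104high libraries were lower, and the change was -0.41 ± 0.06 (SE; adjusted p = 0.00132). Both calls were made under each of the 19 alternatives. RAB4A, the fast recycling RAB of the early endosome, was at 1451, 1458 and 1411 scaled reads in CD104high cells, against 1807, 1525 and 1720.5 in CD104low cells. The groups did not overlap, and limma left the change uncalled at -0.22 ± 0.08 (SE; adjusted p = 0.0611), while the authors' deposited table gives an adjusted p of 0.0473. After the length and GC correction RAB4A was at 0.01 (adjusted p = 0.904), and it shares 21% of its 31-base words with SPHAR. The remaining 8 were not called: RAB4B at 0.85 with an SE of 0.52, RAB11B at 0.15, RAB14 at 0.04, RAB11A, the main RAB of the recycling endosome, at -0.02, RAB8A at -0.11, RAB10 at -0.14, RAB8B at -0.16 and RAB15 at -0.20. For RAB4B, 60.8% of its 31-base words are shared with other genes, so its reads may be divided. RAB8A shares 35.3% of its words with other genes on the opposite strand, which matters if strand was not used in counting.

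Of the 16 RABs of the ER and Golgi, 0 were higher and 4 were lower, where 21.8% and 21.6% of all genes were, with a median of 0.02. After the length and GC correction 3 were higher and 2 lower, where 19.6% and 20.9% of all genes were. RAB34, a Golgi RAB that also acts in macropinocytosis and cilium formation, was at 12961, 13245 and 12649 scaled reads in CD104high cells, against 15092, 14229 and 14308 in CD104low cells. The ranges did not overlap, and the change was small, -0.17 ± 0.06 (SE; adjusted p = 0.039). RAB18, found on lipid droplets and the ER, was at 4971, 5065 and 5329 scaled reads in CD104high cells, against 6342, 5646 and 6615 in CD104low cells. Its CD104high libraries were all lower, with a change of -0.27 ± 0.07 (SE; adjusted p = 0.0168). RAB33B, which recruits an autophagy complex at the Golgi, was at 618, 647 and 608 scaled reads in CD104high cells, against 758, 726 and 755 in CD104low cells. The populations did not overlap, and the change was -0.26 ± 0.09 (SE; adjusted p = 0.0441). RAB39A, linked with phagosomes and autophagy and placed in this class here, was at 2.75, 8.83 and 6.08 scaled reads in CD104high cells, against 20.1, 15.2 and 24.7 in CD104low cells. It was barely detected and passed the filter through its CD104low libraries alone, so it had to differ. Its change of -1.69 ± 0.48 (SE; adjusted p = 0.0204) is therefore no test, though it is counted among the 4 lower genes. Of these, RAB18, RAB33B and RAB34 lost the call without CD104high replicate 1 (adjusted p = 0.0669, 0.124 and 0.108), CD104low replicate 1 (0.0666, 0.126 and 0.135) or CD104low replicate 3 (0.0656, 0.114 and 0.0814), and RAB33B and RAB34 also without CD104high replicate 2 (0.0703 and 0.0689) or 3 (0.089 and 0.0805). RAB33B further lost it without CD104low replicate 2 (0.0562), and RAB39A without CD104high replicate 1 (0.0633). The length and GC correction moved RAB18 to -0.10 and RAB33B to -0.08, both uncalled, and scaling to equal totals ended the calls of RAB33B (0.0759) and RAB34 (0.0919).

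The RABs that carry traffic between the ER and the Golgi in every cell were not called. RAB1A averaged 7616 ± 677 scaled reads in CD104high cells and 7372 ± 135 in CD104low cells (SD, n = 3 each). RAB1B averaged 10767 ± 59.2 scaled reads in CD104high cells and 10922 ± 397 in CD104low cells. RAB6A averaged 6127 ± 156 scaled reads in CD104high cells and 5843 ± 159 in CD104low cells. On the log2 scale these were changes of 0.04, -0.02 and 0.07, and the libraries overlapped. After the length and GC correction, however, RAB1A was called higher at 0.36 (adjusted p = 0.00411) and RAB6A at 0.20 (0.015). RAB2A, also at the Golgi, was at -0.21 (adjusted p = 0.101) and RAB2B at 0.13. RAB30, another Golgi RAB, was at 972, 1124 and 1149 scaled reads in CD104high cells, against 848, 913 and 940.0 in CD104low cells. The groups did not overlap, and at 0.26 ± 0.10 (SE; adjusted p = 0.0564) it was the nearest to the threshold of the RAB genes left uncalled, while the authors' deposited table calls it with an adjusted p of 0.02. RAB6B, RAB6C, RAB6D, RAB36, RAB41 and RAB43 were not called, between -0.16 and 0.38. Values of RAB6A, RAB6C, RAB6D and RAB43 are uncertain, because 34%, 68.6%, 70.9% and 91.1% of their 31-base words are shared with other genes. For RAB1B the share is 10.7% on the same strand and 35.9% on the opposite strand, where it matters if strand was not used in counting.

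In the class of cilium and other RABs, 1 of 6 was higher and 2 were lower, against 21.8% and 21.6% of all genes, with a median of 0.16. RAB28, a RAB of cilia and photoreceptors, was at 1679, 1835 and 1947 scaled reads in CD104high cells, against 2560.5, 2256 and 2683 in CD104low cells. The CD104high libraries were all lower, with a change of -0.46 ± 0.09 (SE; adjusted p = 0.00446). RAB23, which acts at the cilium as a brake on Hedgehog signalling, was at 1496, 1574 and 1558 scaled reads in CD104high cells, against 2018, 1956 and 2051 in CD104low cells. The replicates lay close together and the populations well apart, at -0.38 ± 0.07 (SE; adjusted p = 0.00287). Of its 31-base words, 58.5% also occur in BAG2 transcripts on the opposite strand, so reads of these genes could be exchanged if strand was not used in counting. RAB40B, one of the RABs with a SOCS box that recruit a cullin ubiquitin ligase, was at 530.0, 528 and 579 scaled reads in CD104high cells, against 399, 380.2 and 460.4 in CD104low cells. The groups did not overlap, and the change was 0.40 ± 0.12 (SE; adjusted p = 0.0217). It lost the call without CD104high replicate 1 (adjusted p = 0.0582) or 3 (0.0554) and without CD104low replicate 1 (0.0767) or 2 (0.0533). After the length and GC correction RAB40B (0.0713) and RAB28 (0.0517) missed the threshold. RAB40A, RAB40C and RAB42 were not called, at 0.24, 0.08 and 0.24.

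Levels of different genes can be set side by side only per length, so scaled reads were divided by the length of the longest annotated transcript in kb. On this scale the family as a whole summed to 56276.5 ± 1574 scaled reads per kb in CD104high cells and 57841 ± 1638 in CD104low cells (SD, n = 3 each), with overlapping libraries. RAB34 led with 7334 and 8235 in CD104high and CD104low cells, then RAB7A with 5924 and 5841 and RAB1B with 5365 and 5442. The limit on RAB1B given above holds here too. Regulated secretion RABs summed to 1062, 1064 and 1137 scaled reads per kb in CD104high cells, against 752.5, 824 and 725 in CD104low cells. They are the least abundant class in either population, at 1.93% and 1.33% of the family. Early endosome RABs summed to 7465, 7749 and 8410 in CD104high cells, against 6494, 6478 and 6418 in CD104low cells. In these 2 sums every CD104high library was above every CD104low library. They hold the members called higher above, so this separation adds nothing independent of those calls. Of single genes tested 54.3% did not overlap, and the share for sums of genes was not computed. The late endosome and lysosome class was lower in every CD104high library, at 9676, 10217.6 and 10462.3 in CD104high cells, against 11418.8, 10796.8 and 11094.6 in CD104low cells, and so were the ER and Golgi class and the cilium class, while the recycling class overlapped. One gene carried most of each of these 3 lower sums. RAB32 differed by -981.9 scaled reads per kb (CD104high minus CD104low), against -984.9 for the whole late endosome and lysosome class, in which 6 of 9 genes had a positive log2 fold change. RAB34 gave -901.1 of -1246 in the ER and Golgi class, and RAB28 gave -375.5 of -388.9 in the cilium class. Without that gene the libraries overlapped in each of the 3 classes. The regulated secretion and early endosome sums stayed apart without RAB27A and RAB31, their members that differed most.

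**Figure D3:**
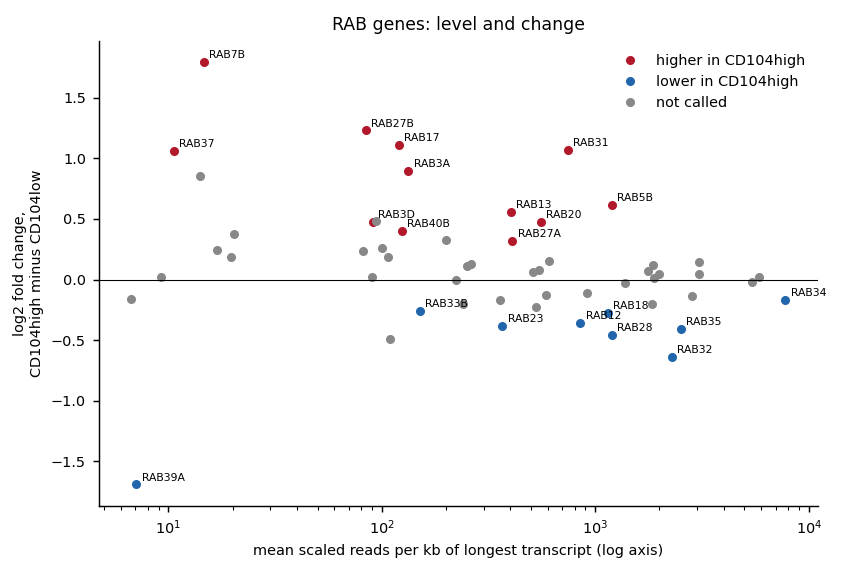
Log2 fold change (CD104high minus CD104low, y axis) of the 56 RAB genes against their mean level over 6 libraries in scaled reads per kb of longest transcript (x axis, log scale). Called genes are named and coloured, red for higher and blue for lower. RAB34, at 7334 in CD104high and 8235 in CD104low cells, is farthest to the right and close to 0. The largest rise (RAB7B) and the largest fall (RAB39A, which had to differ) are at the left. The next largest fall, RAB32 at -0.64, is at the right, at 1800 in CD104high and 2782 in CD104low cells.

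The more abundant RAB genes had smaller changes in the median. Over 47 RAB genes with a mean of at least 100 scaled reads, the median coefficient of variation between replicates was 5.72% in CD104high cells and 7.13% in CD104low cells. The 28 most abundant by level per kb, from 403 scaled reads per kb upward, had a median change of 0.15 in size. Of them 5 were higher and 6 lower, where 21.8% and 21.6% of all genes tested were. The 28 others had 7 higher and 3 lower genes and a median of 0.30. They include the RAB genes with the fewest reads, and whether all genes show the same trend with level was not tested. The called genes also differed in composition: the longest transcript had a median GC content of 52.7% for the higher genes and 42.7% for the lower ones, against 44.7% for those not called and 48.5% over all genes tested. Its median length was 3632 bases for the higher genes, 2145 for the lower ones, 3032 for those not called and 3515 over all genes. Corrected for length and GC content, RAB1A and RAB6A (given above) were called, as were RAB5A at 0.30 (adjusted p = 0.00422), RAB14 at 0.23 (0.0174), RAB9A at 0.38 (0.0206), RAB9B at 0.67 (0.045) and RAB30 at 0.28 (0.0395), all higher, and RAB15 at -0.36 (0.0323) and RAB8A at -0.17 (0.0496), both lower. By class, the corrected counts of higher and lower genes were 5 and 0 for regulated secretion and 5 and 0 for the early endosome. They were 3 and 1 for the late endosome and lysosome, 2 and 3 for recycling, 3 and 2 for the ER and Golgi and 0 and 1 for the cilium class. Of all genes 19.6% and 20.9% were higher and lower after the correction. What part composition has in the uncorrected calls was not tested further.

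Among RAB genes that share a number, 21 pairs could be compared through the log2 ratio of the 2 members within each library. In 8 pairs (38.1%) the CD104high and CD104low ratios did not overlap, against 50% of all pairs of tested genes. Some of these pairs share a member, and each of the 8 reached p = 0.1 in the exact two-sided permutation test, the smallest value that 3 against 3 samples allow (0.263 after Benjamini-Hochberg adjustment over the 21 pairs). The pairs were RAB5B with RAB5A and with RAB5C, RAB27A with RAB27B, RAB3A with RAB3D, RAB7A with RAB7B, RAB9A with RAB9B, RAB2A with RAB2B and RAB40B with RAB40C. RAB5B made up 27.3%, 27.8% and 27% of the RAB5 reads per kb in CD104high cells, against 19%, 21.6% and 20.8% in CD104low cells, with the limit on RAB5C given above. RAB27B made up 16%, 19.5% and 25.9% of the RAB27 reads per kb in CD104high cells, against 10.8%, 13.6% and 11.2% in CD104low cells. In both families the share was greater in every CD104high library, and for RAB27B the spread within CD104high cells was wide. RAB3A took 62.2 ± 0.804% of the RAB3A and RAB3D reads in CD104high cells and 55.1 ± 1.76% in CD104low cells (SD, n = 3 each). RAB7B took 0.369 ± 0.0683% of the RAB7 reads in CD104high cells and 0.126 ± 0.101% in CD104low cells, so that RAB7A made up nearly all of them in both. RAB2A held 86.2 ± 0.293% of the RAB2 reads in CD104high cells and 88.8 ± 0.234% in CD104low cells. RAB9B and RAB40B held 17.1 ± 0.519% and 19.6 ± 0.265% of their families in CD104high cells and 13.5 ± 2.71% and 16.4 ± 1.72% in CD104low cells. In the other 13 pairs the ratios overlapped: RAB1A with RAB1B, RAB4A with RAB4B, RAB5A with RAB5C, RAB8A with RAB8B, RAB11A with RAB11B, RAB40A with RAB40B and with RAB40C, and the 6 pairs among RAB6A, RAB6B, RAB6C and RAB6D.

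**Figure D4:**
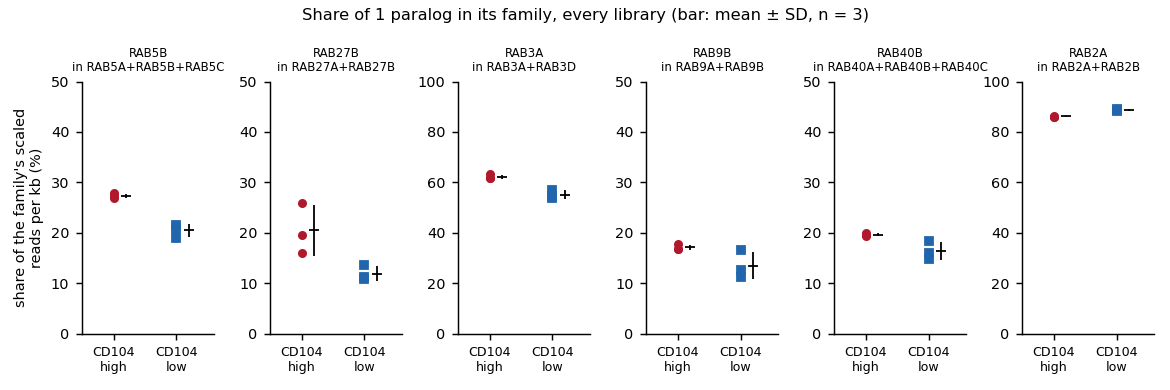
Share of 1 paralog in its family's scaled reads per kb (y axis, percent) in every library, CD104high as red circles on the left of each panel and CD104low as blue squares on the right, with the mean ± SD beside them (n = 3). RAB5B, RAB27B, RAB3A, RAB9B and RAB40B take a greater share in CD104high libraries and RAB2A a smaller one. The axes run to 50% or 100%.

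The genes that switch, load and read RABs were counted next, in 4 lists with 138 names, of which 130 were tested. Here 48 (36.9%) were higher and 13 (10%) were lower in CD104high cells, against 21.8% and 21.6% of all genes tested, and the median log2 fold change was 0.15 against 0.02. After the length and GC correction 33 were higher and 20 were lower, and without CD104high replicate 1 the lower ones numbered 8. Among 39 GEFs, 12 were higher and 3 lower (21.8% and 21.6% of all genes were), and 8 and 7 after the correction, where 19.6% and 20.9% of all genes were called. DENND5B, a DENN domain GEF, was at 3399, 3601 and 3512 scaled reads in CD104high cells, against 2223, 2632 and 2479.6 in CD104low cells. All CD104high libraries were above all CD104low libraries, with a change of 0.52 ± 0.08 (SE; adjusted p = 0.00127). DENND2D, another DENN domain GEF, averaged 420.2 ± 42.4 scaled reads in CD104high cells and 247 ± 6.51 in CD104low cells (SD, n = 3 each), a change of 0.76 ± 0.13 (SE; adjusted p = 0.00198). MON1A, a subunit of the GEF that loads RAB7, was at 843, 793 and 869.9 scaled reads in CD104high cells, against 1301, 1142 and 1346 in CD104low cells. Here the CD104high libraries were all lower, with a change of -0.59 ± 0.09 (SE; adjusted p = 0.00164). RAB3IP, the GEF of RAB8 in cilium formation, averaged 625 ± 24.7 scaled reads in CD104high cells and 886 ± 73.9 in CD104low cells and changed by -0.50 ± 0.10 (SE; adjusted p = 0.00439).

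Among 35 GAP and TBC domain genes, 16 (45.7%) were higher and 4 (11.4%) lower, against 21.8% and 21.6% of all genes. After the length and GC correction 9 (25.7%) were higher and 6 (17.1%) lower, against 19.6% and 20.9%. TBC1D16, a GAP of RAB4A, was at 5823, 5722 and 5631 scaled reads in CD104high cells, against 3596, 4018 and 4056 in CD104low cells. The groups were far apart, at 0.56 ± 0.07 (SE; adjusted p = 0.000545), but the length and GC correction left 0.12 (adjusted p = 0.161). TBC1D9 averaged 5488 ± 283 scaled reads in CD104high cells and 3852 ± 299 in CD104low cells (SD, n = 3 each), a change of 0.51 ± 0.08 (SE; adjusted p = 0.00126). TBC1D30, a GAP of RAB8 in cilium formation, was at 108, 115 and 48.7 scaled reads in CD104high cells, against 287, 334 and 225 in CD104low cells. Every CD104high library was lower, CD104high replicate 3 most of all, and the change was -1.71 ± 0.32 (SE; adjusted p = 0.00351), while the adjusted p in the authors' deposited table is 0.0785. TBC1D1, the GAP that restrains RAB10 and RAB8 in glucose transporter traffic, averaged 4966 ± 649 scaled reads in CD104high cells and 6549.7 ± 37.8 in CD104low cells and changed by -0.41 ± 0.09 (SE; adjusted p = 0.00815).

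Of 7 genes for prenylation and membrane delivery, 1 (14.3%) was higher and 3 (42.9%) were lower, against 21.8% and 21.6% of all genes. After the length and GC correction 2 (28.6%) were higher and 1 (14.3%) lower, against 19.6% and 20.9%. RABGGTB, the catalytic beta subunit of the RAB geranylgeranyl transferase, was at 3881, 4098 and 3719 scaled reads in CD104high cells, against 5838, 6025 and 5305 in CD104low cells. The CD104high libraries were all lower, with a change of -0.55 ± 0.07 (SE; adjusted p = 0.000733), whereas the alpha subunit gene RABGGTA was not called at 0.25 (adjusted p = 0.06). GDI2, which draws RABs off membranes, averaged 18144 ± 587 scaled reads in CD104high cells and 21128 ± 1106 in CD104low cells (SD, n = 3 each), a change of -0.22 ± 0.06 (SE; adjusted p = 0.0205). CHML, a RAB escort protein, was the remaining lower gene at -0.24. RABAC1, a membrane protein that helps to release RABs from GDI, averaged 469 ± 45.5 scaled reads in CD104high cells and 357 ± 33.9 in CD104low cells and changed by 0.39 ± 0.13 (SE; adjusted p = 0.0353). GDI2 lost its call without either replicate 1 (adjusted p = 0.076 for CD104high and 0.068 for CD104low), CD104high replicate 2 (0.0672) or CD104low replicate 3 (0.0817), and was at -0.02 after the length and GC correction. RABAC1 lost it without CD104high replicate 1 (0.0934) or 3 (0.0944) or CD104low replicate 1 (0.114) or 2 (0.08). CHML and RABGGTA were named after their values were seen.

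Of 49 effector genes tested, 19 (38.8%) were higher and 3 (6.12%) were lower, against 21.8% and 21.6% of all genes. After the length and GC correction 14 (28.6%) were higher and 6 (12.2%) lower, against 19.6% and 20.9%. OPTN, an autophagy receptor that binds RAB8, was at 9554, 9646 and 10673 scaled reads in CD104high cells, against 5373, 6087 and 5546 in CD104low cells. The populations were far apart, with a change of 0.81 ± 0.07 (SE; adjusted p = 0.000244). GCC2, a golgin of the trans-Golgi network, averaged 2632 ± 86.0 scaled reads in CD104high cells and 1909 ± 30.1 in CD104low cells (SD, n = 3 each), a change of 0.46 ± 0.07 (SE; adjusted p = 0.00102). RIMS2, a RAB3 effector at vesicle release sites, was at 951, 999 and 874 scaled reads in CD104high cells, against 1719.7, 1548 and 1969.8 in CD104low cells. All CD104high libraries were lower, with a change of -0.89 ± 0.11 (SE; adjusted p = 0.000538). RABEPK, a RAB9 effector, averaged 2189 ± 239 scaled reads in CD104high cells and 3110.5 ± 313 in CD104low cells and changed by -0.51 ± 0.10 (SE; adjusted p = 0.005). Effectors of RAB3 and RAB27 in the list were looked at after their values were seen, and of 10 tested 3 were higher, 1 (RIMS2, above) lower and 6 not called. Of all genes 21.8% were higher and 21.6% lower. RIMS3, also in the effector list, was not counted among the 10 and was higher at 0.40 (adjusted p = 0.0145). SYTL1, which binds RAB27, was at 758, 749 and 613 scaled reads in CD104high cells, against 346, 433 and 295 in CD104low cells. RPH3AL, which binds RAB3 and RAB27, was at 329, 377 and 348 scaled reads in CD104high cells, against 207, 199 and 172 in CD104low cells, and MLPH, which links RAB27A to myosin V, was at 3931, 3569.8 and 3614 scaled reads in CD104high cells, against 2414, 2242 and 2822 in CD104low cells. In each of these 3 genes the CD104high libraries were all above the CD104low ones, with changes of 0.99, 0.86 and 0.58 (adjusted p = 0.00173, 0.00163 and 0.00178). The 6 others were uncalled: RIMS1 at 0.52, SYTL2 at 0.34, UNC13D at 0.22, EXPH5 at 0.06, SYTL4 at 0.04 and SYTL3 at -0.12.

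**Figure D5:**
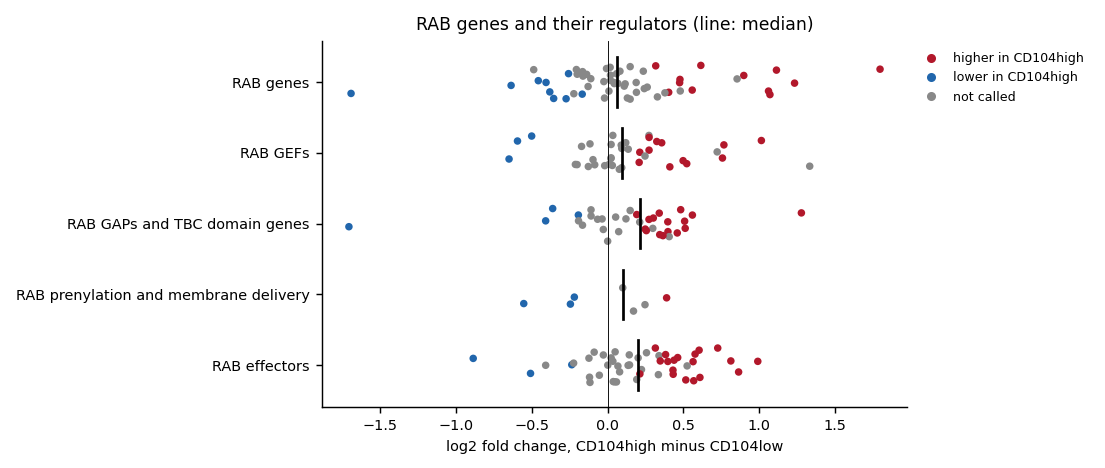
Log2 fold change (CD104high minus CD104low, x axis) of each tested gene among the RAB genes and the 4 lists of RAB regulators (rows; height within a row is arbitrary). Red is called higher in CD104high cells, blue lower, grey not called, and the black bar is the median, 0.06 for RAB genes and 0.21 for GAP and TBC domain genes.

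The ARF and ARL small GTPases, which act in vesicle budding and at cilia, were counted in the same way. Of 26 genes tested, 2 were higher and 4 lower, with a median of -0.10. These shares, 7.69% and 15.4%, were below those over all genes in either direction. Whether RAB genes differ from ARF and ARL genes was not tested.

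Beyond the sequences shown above, short motifs were counted on both strands in the 250 bases before each RefSeq start site, taking a gene as holding a motif if any of its windows did. The full cAMP response element TGACGTCA was in 0 of the 46 RAB genes, and in 2.03% of all 27305 genes with a window. Its core TGACG, which every full element also contains, was in 4 of 10 higher, 5 of 7 lower and 10 of 29 uncalled RAB genes, against 24.9% of all genes. The GC box GGGCGG was in 8 of 10, 7 of 7 and 24 of 29, against 46.2% of all genes. CACGTG was in 1, 0 and 4 of them (7.73% of all genes). The AP-1 motif TGANTCA was in 4 of 10 higher genes, 1 of 7 lower and 0 of 29 uncalled genes, against 8.06% of all genes. All these shares are over the 27305 genes with a window, tested in these cells or not. Every RAB gene was tested, so the sets are unlike, and motif shares over tested genes alone were not computed. Genes with several windows have more chances to hold a motif, and every RAB gene with an AP-1 match has several. RAB27A has 5, RAB34 has 3, and RAB13, RAB27B and RAB5B have 2 each, while most uncalled RAB genes have 1. The part of window number in the difference was not tested. Each match is shown with 10 bases on either side, on the strand of the gene, with the motif in capitals (RAB27B at chr18:54828330-54828356, RAB27A at chr15:55270580-55270606, RAB5B at chr12:55973729-55973755, the first of 2 neighbouring matches of RAB13 at chr1:153985479-153985505 and RAB34 at chr17:28718250-28718276; RAB27B and RAB5B on the plus strand, the others on the minus strand).
RAB27B: ctgcagcagtTGAGTCAccagcaagac
RAB27A: tctactgtttTGATTCAcggggtaggt
RAB5B: tagatgtttaTGAGTCAaaaggcgggg
RAB13: ttggggtctcTGAGTCAgcctggtgac
RAB34: gcagactctaTGAGTCAcctcccaggc
RAB27B, RAB5B, RAB13 and RAB34 carry the same 7 letters TGAGTCA, and RAB27A carries TGATTCA. The 4 genes listed before RAB34 were higher in CD104high cells, and RAB34 was lower. Only the RAB5B match lies before the annotated start of its gene. Those of RAB27B, RAB27A, RAB13 and RAB34 lie within the annotated gene, before a RefSeq start site inside it. The RAB27B gene starts at chr18:54717860, so its match is far from the RAB27B stretch shown earlier. Whether these inner start sites are used in these cells was not tested. A match is a run of letters and not evidence that a factor binds there.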

How the data were processed

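RNA from the sorted cells was sequenced in 6 libraries, per the labels' protocols. Tools listed in the submitters' processing notes are FastQC, Salmon 1.3.0 and DESeq2, and the build is GRCh38 (hg38). Not given in the sources used here: annotation release, filters and model formula. The authors deposited, per the file headers, a signal for each gene and library (counts divided by a size factor), a log2 fold change and its standard error on the same scale, and the p-value before and after adjustment. Of the 15024 genes listed, 14420 passed the filter below. Dividing the signal by its step gave whole reads within 0.01 for 100% of values, used only in alternative count tests.

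The main test was trended limma (version 3.58.1, R 4.3.3) on log2(value + 1), keeping genes that reached 10 in 3 or more samples, with population as the only term and Benjamini-Hochberg adjustment over all 14420 tested genes (threshold 0.05). Such a fold change is too small for genes with low values. Alternatives were a replicate block, other scalings (TMM, DESeq2 size factors, equal totals), other filters (none, 50) and pseudocounts (0.5, 8), untrended limma, edgeR 4.0.16 and DESeq2 1.42.0 on recovered reads, a correction of each library for transcript length and GC content (splines with 5 degrees of freedom), the authors' deposited fit and leaving out each library.

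GENCODE 29 on GRCh38 (99.8% of identifiers matched) gave positions, overlaps, and the length and GC content of the longest annotated transcript, which need not be the expressed one. No source used here says whether strand entered the counting. One further list that was counted is not reported here. Replicates of a population differed beyond sampling noise (chi-square per degree of freedom 13.21 to 46.38). The members, lists and tests were chosen with earlier results of these data known. Values in every sample are given for called RAB genes, other RAB genes are described by class, and each regulator list gives the 2 smallest p in each direction. Genes given outside this rule were chosen after their values were seen: RABGGTA, CHML, RIMS3, the effectors of RAB3 and RAB27, and the uncalled RAB4A, RAB26, RAB30 and RAB38 with their values in every sample.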

Additional observations from a re-analysis of the deposited data

How the results depend on the processing

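Of the 21 called RAB genes, 11 were called under each of the 19 alternatives in which they could be tested (RAB3A, RAB5B, RAB13, RAB17, RAB20, RAB23, RAB27B, RAB31, RAB32, RAB35 and RAB37, the last of these removed by the stricter filter), and none of the 21 changed sign. RAB39A was tested in 15 of the 19. Of the 35 uncalled RAB genes, 14 were called under at least 1 alternative. RAB genes called higher numbered 12, with 8 to 13 when 1 library was left out and 18 after the length and GC correction. RAB genes called lower numbered 9, with 4 to 9 when 1 library was left out and 7 after the length and GC correction. Regulator genes called higher numbered 48, with 32 to 47 when 1 library was left out and 33 after the length and GC correction. Regulator genes called lower numbered 13, with 8 to 15 when 1 library was left out and 20 after the length and GC correction. The causes were not tested. Paralog pairs with non-overlapping ratios numbered 8, 11 after the length and GC correction and 8 to 11 when 1 library was left out. Leaving a library out can only keep or raise that number, and rescaling a library (TMM) leaves a ratio within it nearly as it was, so neither tests those pairs. With the replicate block the counts were 16 and 11 for RAB genes and 59 and 17 for regulators (higher and lower). The share of all genes called with the block is not given here, so these counts cannot be set against it. Same-numbered libraries deviated from their group means with correlations of 0.0836, 0.359 and 0.324, each the highest for its number, which is a hint from the data and not the design. The median log2 fold change of all genes was 0.0187, and lay between 0.000434 and 0.0522 under the other scalings. Low depth limits RAB39A, RAB7B, RAB37, RAB4B, RAB6B, RAB6D, RAB40A and RAB41, all with means under 50 scaled reads in at least 1 population.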
